A study of Mus musculus with 6 samples.

Results

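The 10 genes described here encode the machinery of microRNA silencing in the mouse: the Argonautes Ago1, Ago2, Ago3 and Ago4, the TNRC6 proteins Tnrc6a, Tnrc6b and Tnrc6c, and the processing factors Drosha, Dgcr8 and Dicer1. They were taken as every probe set whose single annotated symbol was one of these names or an older name of it (Eif2c1 to Eif2c4 for the Argonautes), which gave 36 of the 45037 probe sets on the array and 10 of 18193 genes. The arrays measured total RNA of epididymal white adipose tissue from 8-week-old C57BL/6 mice. The CNOT3KO group held 3 mice in which Cre, driven by the adiponectin promoter, deleted Cnot3 in adipocytes, and the WT group held 3 mice labelled wild type or control. The labels used here give no Cre or Cnot3 alleles for the WT mice. Each array is 1 mouse, and a value is the linear MAS5 signal of a probe set, which can be compared between mice but not between probe sets.

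MicroRNAs are cut from nuclear transcripts by Drosha with its RNA-binding partner Dgcr8, and their hairpins are cut again in the cytoplasm by Dicer1. An Argonaute protein then holds the mature microRNA and pairs it with an mRNA, and a TNRC6 protein bound to the Argonaute recruits deadenylases that shorten the poly(A) tail. CCR4-NOT, the complex to which CNOT3 belongs, is the main deadenylase brought in by this route, and Dicer1 is known to be needed in fat cells for normal adipose tissue. The arrays read the mRNAs of these proteins, not the proteins or the microRNAs.

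No member gene passed the test as higher in CNOT3KO fat, and 5 of 10 passed as lower: Tnrc6a, Tnrc6b, Tnrc6c, Ago3 and Dicer1. The largest of these was Tnrc6b, whose signal in CNOT3KO mice averaged 56.9% of that in WT mice. All 3 TNRC6 genes were lower, while Ago1, Ago2, Ago4, Drosha and Dgcr8 did not pass. The test was limma on log2 signal with Benjamini-Hochberg adjustment over 12769 genes, each read from its brightest probe set, at an adjusted p under 0.05. Over all tested genes 40.1% passed, 23.2% as higher and 16.9% as lower in CNOT3KO. The groups did not overlap for 7 of the 10 genes, against 51.7% of all tested genes. The median log2 difference was -0.27 over the 10 genes and 0.02 over all tested genes. Centring each array on the median of tested genes gave 2318 higher and 2800 lower genes over the whole table, against 2959 higher and 2156 lower as deposited. That centring took the median of the 10 genes to -0.37 and that of all tested genes to -0.07. With all tested probe sets of a gene averaged, the median over the 10 genes was -0.08 and a single gene, Tnrc6b, passed.

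**Figure D1:**
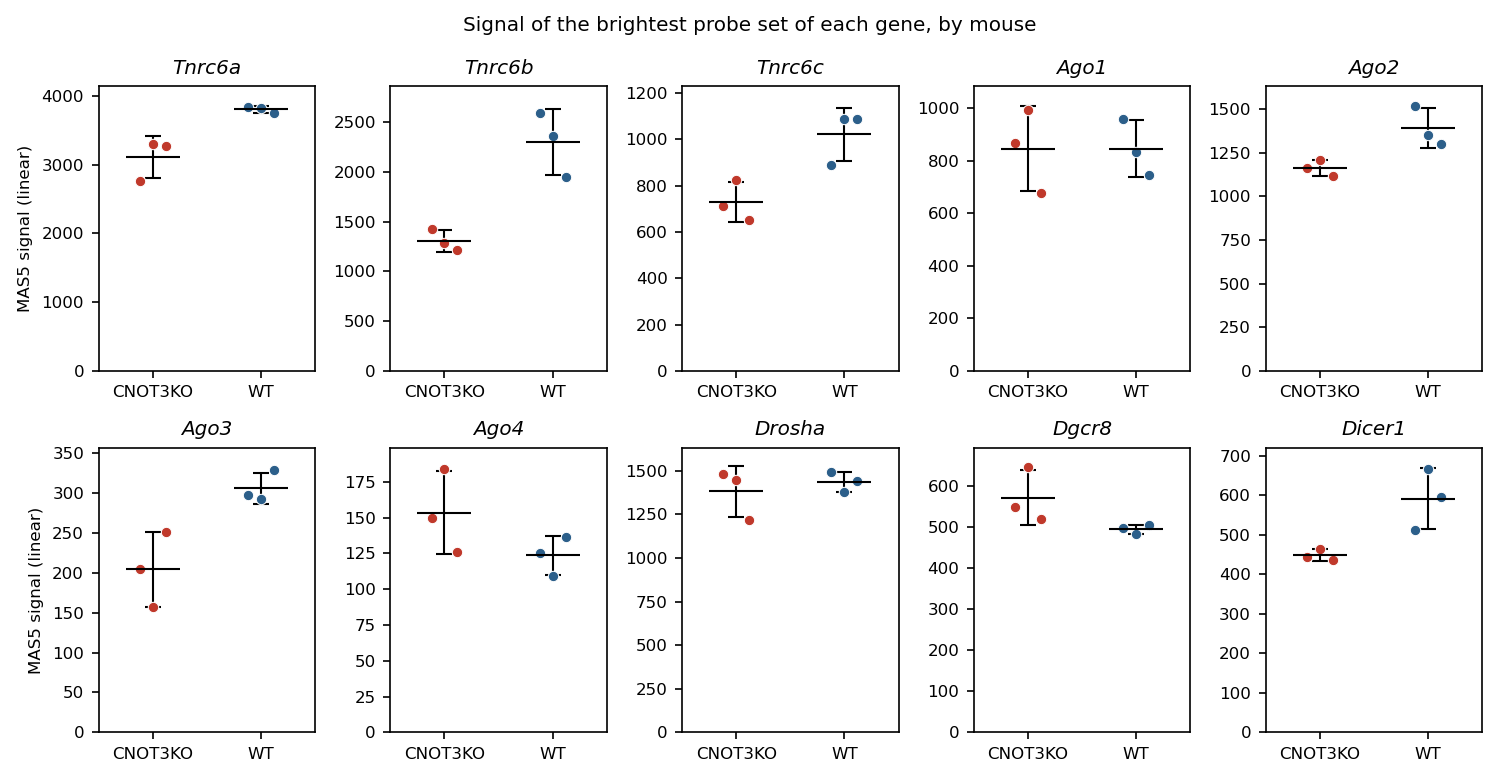
Linear MAS5 signal (vertical axes, from 0) of the brightest probe set of each of the 10 genes in 3 CNOT3KO mice and 3 WT mice, with the mean and SD as bars. The CNOT3KO points lie below every WT point for Tnrc6a, Tnrc6b, Tnrc6c, Ago2, Ago3 and Dicer1, and above every WT point for Dgcr8.

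Cnot3, the deleted gene, gave 194, 229 and 179 in the CNOT3KO mice, against 305, 293 and 305 in the WT mice, with no overlap (log2 difference -0.54, SE 0.14, limma adjusted p = 0.0131). Whether its probe set lies in the deleted stretch was not known. With the probe sets of Cnot3 averaged, the log2 difference was -0.36 (limma adjusted p = 0.0423). Summed signals of cell type markers, in which the brightest genes weigh most, separated the groups for every list but the adipocyte one. For 10 endothelial genes they were 4487 to 5355 in CNOT3KO and 11853 to 12720 in WT (10 of 10 tested lower). For 10 macrophage genes they were 30227 to 49926 in CNOT3KO and 17274 to 18669 in WT (8 of 10 higher, 1 lower). The sums were 3779 to 4678 in CNOT3KO and 895 to 995 in WT for 9 proliferation genes (9 of 9 higher), and 140608 to 168854 in CNOT3KO and 158677 to 201884 in WT for 10 adipocyte genes (3 of 10 lower, the groups overlapping). Progenitor and fibroblast markers summed to 56264 to 64845 in CNOT3KO and 43302 to 52894 in WT (4 of 8 higher, 1 lower). T and B cell markers summed to 411 to 440.2 in CNOT3KO and 454 to 808 in WT (1 of 4 tested lower). Epididymis markers summed to 215 to 219 in CNOT3KO and 162 to 179 in WT (1 of 1 tested higher). Both of these sums also hold genes too dim to test. The higher epididymis sum rests on the tested gene, Rnase10, which averaged 175 in CNOT3KO and 96.5 in WT. Of the dim epididymis genes, Lcn5, Lcn8 and Adam7 averaged lower in CNOT3KO and Spint4 higher, all with overlapping groups. The part of these shifts in the values below was not tested. In bulk tissue, fewer cells of a type and less RNA per cell cannot be told apart.

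The promoters of the TNRC6 genes are shown because all 3 members of this family passed as lower from their brightest probe sets. With probe sets averaged, only Tnrc6b passed. Each window is the 250 bases before an annotated start, from RefSeq on GRCm38.p6, written 5′ to 3′ on the gene's strand. Capitals mark the CCAAT box (CCAAT or ATTGG), the GC box (GGGCGG or CCGCCC) and the E-box (CACGTG), searched on both strands. The windows are Tnrc6b window 1 at chr15:80711063-80711312, Tnrc6b window 2 at chr15:80798360-80798609, Tnrc6a at chr7:123123635-123123884 and Tnrc6c at chr11:117654039-117654288, all on the + strand.
Tnrc6b window 1: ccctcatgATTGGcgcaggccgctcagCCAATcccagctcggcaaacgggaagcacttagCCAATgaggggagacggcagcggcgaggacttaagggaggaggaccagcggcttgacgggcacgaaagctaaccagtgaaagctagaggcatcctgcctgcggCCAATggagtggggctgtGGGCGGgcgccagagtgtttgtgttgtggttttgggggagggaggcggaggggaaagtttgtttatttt
Tnrc6b window 2: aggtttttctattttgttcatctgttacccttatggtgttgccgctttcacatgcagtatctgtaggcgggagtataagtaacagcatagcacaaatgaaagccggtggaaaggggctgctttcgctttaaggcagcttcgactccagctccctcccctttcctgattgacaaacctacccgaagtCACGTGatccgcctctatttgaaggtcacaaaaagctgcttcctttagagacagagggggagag
Tnrc6a: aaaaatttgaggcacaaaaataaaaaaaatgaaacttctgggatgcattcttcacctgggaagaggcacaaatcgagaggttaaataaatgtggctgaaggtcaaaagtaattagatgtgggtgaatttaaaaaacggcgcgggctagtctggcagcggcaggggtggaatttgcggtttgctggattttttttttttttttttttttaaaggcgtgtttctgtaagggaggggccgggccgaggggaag
Tnrc6c: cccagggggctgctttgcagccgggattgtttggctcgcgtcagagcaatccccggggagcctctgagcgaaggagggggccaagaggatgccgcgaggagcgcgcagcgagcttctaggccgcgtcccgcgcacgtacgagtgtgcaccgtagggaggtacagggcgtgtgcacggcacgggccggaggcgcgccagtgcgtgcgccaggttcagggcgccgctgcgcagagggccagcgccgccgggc

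The first Tnrc6b window held 4 CCAAT boxes and 1 GC box, and its second window held 1 E-box and neither of the other motifs. The Tnrc6a and Tnrc6c windows held none of these letters, so the 3 genes shared no searched motif. Across 32851 windows of the same length, 33.8% held a CCAAT box, 32.7% a GC box and 6.02% an E-box. These shares count windows with at least 1 box. The Dgcr8 window also held 4 CCAAT boxes and 1 GC box, and the Drosha window held 3 CCAAT boxes. Neither of these genes passed as lower. G and C made up 60% and 48% of the Tnrc6b windows, 42.4% of the Tnrc6a window and 72.4% of the Tnrc6c window, against a median of 52.4% over all windows. Windows were found for 9 of the 10 genes, all but Ago2. A match in letters is a description of the sequence only.

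Tnrc6b had the largest change of the 10 genes. Its brightest probe set, 1436982_at, gave 1429, 1284 and 1212 in the CNOT3KO mice, against 2594, 2361 and 1947 in the WT mice. The highest CNOT3KO mouse lay well under the lowest WT mouse. The means were 1308 ± 111 in CNOT3KO and 2300.4 ± 328 in WT (SD, n = 3 each). On the log2 scale the difference was -0.80 with an SE of 0.13 (limma adjusted p = 0.00111). A second probe set, 1426545_at, gave 425, 352 and 384 in the CNOT3KO mice, against 601, 577 and 738 in the WT mice. It separated the groups as well, with a log2 difference of -0.69 (adjusted p = 0.00431, each probe set tested singly). A further one, 1460024_at, gave 270.4, 342 and 263 in the CNOT3KO mice, against 335, 373 and 393 in the WT mice. There CNOT3KO mouse 2 lay above WT mouse 1, and the log2 difference of -0.32 (95% interval -0.64 to 0.01) did not pass. Of the 10 genes, Tnrc6b alone passed under all 20 other settings, 6 of which left out a mouse, with log2 differences of -0.91 to -0.60.

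The tested genes whose centred log2 profile over the 6 arrays lay nearest to that of Tnrc6b were 3110021A11Rik, Atxn1 and Zfp955b. Their Euclidean distances, the 3 smallest of all tested genes, were 0.0930, 0.0945 and 0.158. The other member genes, which were not picked by distance, had a median of 0.766. 3110021A11Rik averaged 301 ± 17.4 in CNOT3KO and 541 ± 93.3 in WT. Atxn1 averaged 787 ± 63.5 in CNOT3KO and 1379 ± 216 in WT. Zfp955b averaged 224 ± 23.6 in CNOT3KO and 388 ± 33.8 in WT (SD, n = 3 each). These genes were picked for this likeness on the same 6 arrays, so their values are a description.

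Tnrc6c gave 714, 825 and 654 in the CNOT3KO mice, against 890.5, 1086 and 1089.7 in the WT mice, from 1424645_at. Every CNOT3KO value lay under every WT value, and the fitted log2 difference was -0.47 with an SE of 0.13 (limma adjusted p = 0.0175). Its dimmer probe set 1460363_at gave 538, 684 and 462 in the CNOT3KO mice, against 538, 663 and 711 in the WT mice, where the groups overlapped (log2 difference -0.18, 95% interval -0.56 to 0.19). The Tnrc6c call was lost without WT mouse 2 (log2 -0.43, adjusted p = 0.0689), WT mouse 3 (-0.42, 0.0562), CNOT3KO mouse 1 (-0.46, 0.0626) or CNOT3KO mouse 3 (-0.40, 0.0512). It was also lost with its probe sets averaged (-0.33, adjusted p = 0.0952).

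Tnrc6a, the family member with the most probe sets on the array, had 9, of which 8 were bright enough to test. The brightest, 1439244_a_at, gave 2767, 3298 and 3277 in the CNOT3KO mice, against 3839, 3829 and 3746 in the WT mice. The WT mice were close together and all above the CNOT3KO mice. The log2 difference was -0.29 (SE 0.10), past the test by gene (limma adjusted p = 0.0477) but not when every probe set was tested singly (adjusted p = 0.0577). Probe set 1455141_at gave 1927, 2023 and 1797 in the CNOT3KO mice, against 2517, 2430.2 and 2248 in the WT mice, and passed singly (log2 difference -0.32, adjusted p = 0.0375). The third that separated the groups, 1425036_a_at, had a log2 difference of -0.28 (95% interval -0.54 to -0.03) and did not pass. The other 5 tested probe sets overlapped between groups, with log2 differences of -0.19 to 0.08. The gene call was lost with any of 5 mice left out: WT mouse 1 (log2 -0.29, adjusted p = 0.0907), WT mouse 2 (-0.29, 0.122), WT mouse 3 (-0.30, 0.0810), CNOT3KO mouse 1 (-0.21, 0.206) or CNOT3KO mouse 2 (-0.34, 0.0525). With the 8 tested probe sets averaged the difference was -0.14 (adjusted p = 0.259).

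Among the Argonautes, Ago3 was the only one past the test. Its probe set 1441063_at gave 204, 157 and 251 in the CNOT3KO mice, against 297, 292 and 328 in the WT mice. The groups did not overlap, and the log2 difference was -0.55 (SE 0.17, limma adjusted p = 0.0288). Its other tested probe sets gave no call. Probe set 1435904_at gave 160.1, 158 and 142 in the CNOT3KO mice, against 176, 145 and 179.9 in the WT mice (log2 difference -0.10, 95% interval -0.45 to 0.25). Probe set 1441089_at had a difference of the opposite sign, with 151, 125 and 146 in the CNOT3KO mice, against 132, 98.5 and 108 in the WT mice (log2 difference 0.28, 95% interval -0.11 to 0.66). In both, the groups overlapped. The Ago3 call was lost without WT mouse 1 (log2 -0.57, adjusted p = 0.0564), WT mouse 2 (-0.58, 0.0631), WT mouse 3 (-0.51, 0.0804), CNOT3KO mouse 1 (-0.57, 0.0720) or CNOT3KO mouse 2 (-0.40, 0.0885). The average of its tested probe sets was -0.13 (adjusted p = 0.471).

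Ago2, the mouse Argonaute known to slice perfectly paired targets, gave 1163, 1211 and 1118 in the CNOT3KO mice, against 1521, 1351 and 1303 in the WT mice, from 1455389_s_at. The groups did not overlap, yet the log2 difference of -0.25 (95% interval -0.49 to -0.01) did not pass (limma adjusted p = 0.0873). Its other 3 probe sets had log2 differences of -0.24 to -0.02, none past the test. Of these, 1455294_at also separated the groups, with 272, 324 and 278 in the CNOT3KO mice, against 327, 344 and 369 in the WT mice. The groups overlapped for 1426366_at and 1435636_at. Ago1, read by a single probe set, gave 869, 995 and 677 in the CNOT3KO mice, against 961, 832 and 747 in the WT mice. Its log2 difference was -0.01 with a 95% interval of -0.36 to 0.34, which spans changes in either direction. Ago4 gave 149.8, 184 and 126 in the CNOT3KO mice, against 125, 109 and 137 in the WT mice from its brighter probe set (log2 difference 0.26, adjusted p = 0.294), with overlap. Its dimmer probe set had a log2 difference of -0.06.

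Ago3, Ago1 and Ago4 are neighbouring coding genes on chromosome 4, and the differences between family members were tested directly as ratios on each array. Over 10 pairs, 2 passed: Ago3 over Ago4 (log2 difference of the ratio -0.81, SE 0.24, limma adjusted p = 0.00434) and Tnrc6a over Tnrc6b (0.51, SE 0.21, adjusted p = 0.0250). The shares of all genes that passed relative to the same denominators were 31.7% for Ago4 and 77% for Tnrc6b, and 43.3%, 50.5%, 51.9% and 37% for Ago2, Ago3, Tnrc6c and Dgcr8. Ratios to the same gene share its noise. With the pairs fitted beside ratios of unrelated gene pairs, of which 39.4% passed, the first kept its call (adjusted p = 0.0421) and the second did not (adjusted p = 0.0758). Ago3 over Ago4 lost its call without CNOT3KO mouse 2 (log2 -0.53, adjusted p = 0.0876). Tnrc6a over Tnrc6b lost it without WT mouse 1 (0.42, 0.0749), WT mouse 2 (0.49, 0.0925), CNOT3KO mouse 2 (0.45, 0.108) or CNOT3KO mouse 3 (0.41, 0.104). Each gene in these ratios was read from its brightest probe set, and the ratios were not refitted with other probe sets. With probe sets averaged, neither Ago3 (-0.13, limma adjusted p = 0.471) nor Ago4 (0.10, adjusted p = 0.596) passed by gene. Ago1 over Ago3 (0.54, adjusted p = 0.0659) and Tnrc6b over Tnrc6c (-0.32, adjusted p = 0.180) did not pass, so Tnrc6b is not shown to differ from Tnrc6c. With a mouse left out, Ago1 over Ago3 ran from 0.27 to 0.84 and Tnrc6b over Tnrc6c from -0.49 to -0.14. Without CNOT3KO mouse 3, calls were gained by Ago1 over Ago3 (0.84, adjusted p = 0.000385), Ago2 over Ago3 (0.48, 0.0397) and Ago2 over Ago4 (-0.60, 0.0244).

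Of the processing genes, Dicer1 passed as lower by gene but its probe sets moved in opposite directions. Probe set 1460571_at gave 443, 465 and 436 in the CNOT3KO mice, against 511, 666 and 595 in the WT mice. Probe set 1427941_at gave 489.9, 543 and 502 in the CNOT3KO mice, against 354, 388 and 422 in the WT mice. Neither overlapped between groups: the first was lower in every CNOT3KO mouse and the second was higher in every CNOT3KO mouse. Tested singly, the log2 differences were -0.38 (limma adjusted p = 0.0487) and 0.38 (adjusted p = 0.0382), and with both averaged over the gene the difference was 0.0029. By gene, from the first probe set, the adjusted p was 0.0417. That call was lost without WT mouse 2 (log2 -0.29, adjusted p = 0.155), WT mouse 3 (-0.37, 0.0918), CNOT3KO mouse 1 (-0.37, 0.115), CNOT3KO mouse 2 (-0.40, 0.0642) or CNOT3KO mouse 3 (-0.36, 0.0868).

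The ratio of the 2 Dicer1 probe sets tests their difference within each mouse. The ratio of 1460571_at to 1427941_at was 0.904, 0.857 and 0.867 in the CNOT3KO mice, against 1.44, 1.72 and 1.41 in the WT mice. Its log2 difference was -0.76 (SE 0.14, limma adjusted p = 0.0124 over 10092 such ratios). Ago3 was the other member gene with such a split: 1441063_at over 1441089_at was 1.35, 1.25 and 1.71 in the CNOT3KO mice, against 2.24, 2.97 and 3.05 in the WT mice (log2 difference -0.83, SE 0.18, adjusted p = 0.0213). In both, every CNOT3KO ratio lay under every WT ratio. These were 2 of 19 member ratios, from the 9 genes with at least 2 tested probe sets, against 10.2% of all ratios, 6.52% as higher and 3.73% as lower in CNOT3KO, with 29.9% not overlapping. The Dicer1 call was lost without WT mouse 2 (-0.67, adjusted p = 0.0536). The Ago3 call was lost without WT mouse 2 (-0.78, 0.0815), WT mouse 3 (-0.76, 0.0519), CNOT3KO mouse 1 (-0.80, 0.0823) or CNOT3KO mouse 2 (-0.74, 0.0606).

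**Figure D2:**
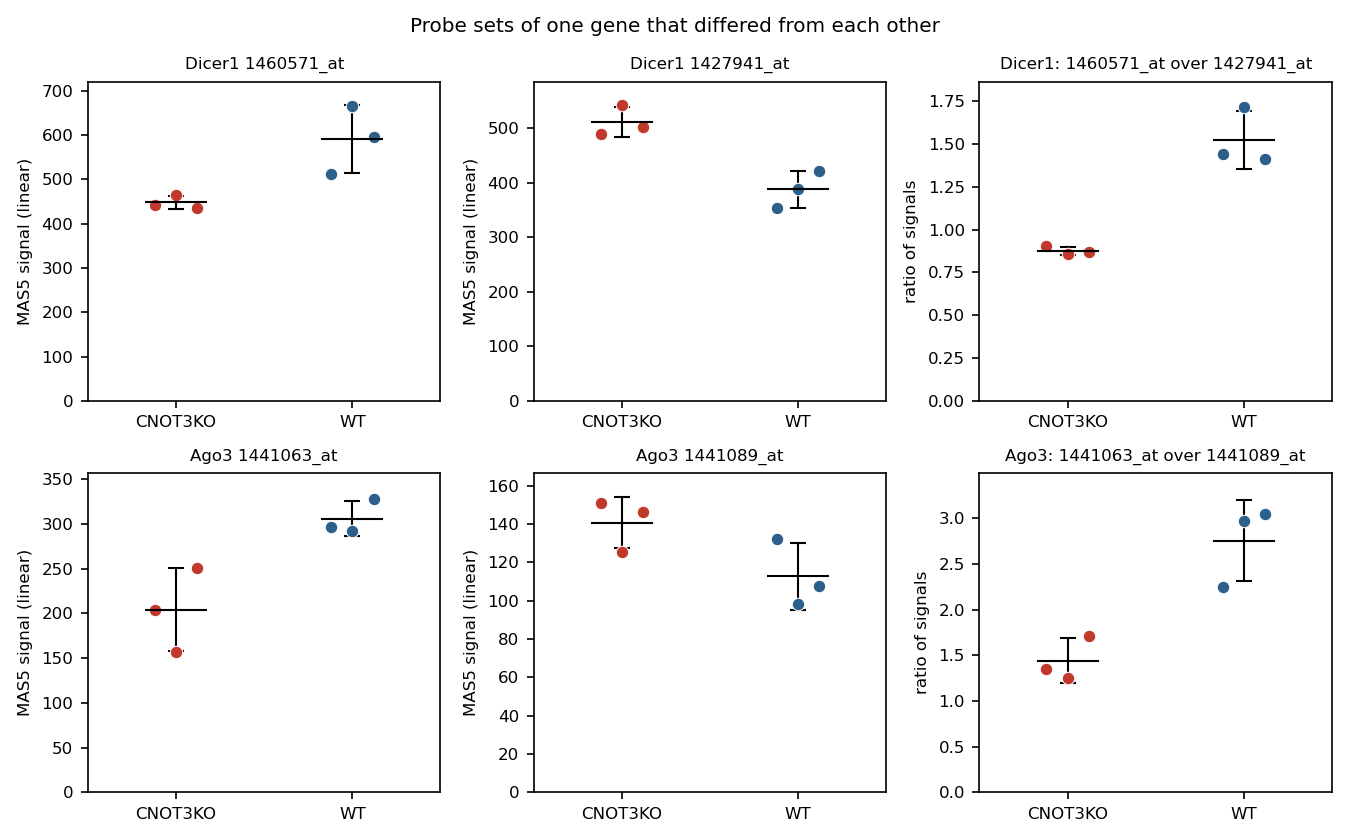
Linear MAS5 signals (left and middle columns) and their ratio (right column) for the probe set pairs of Dicer1 (top) and Ago3 (bottom) in 3 CNOT3KO mice and 3 WT mice, with the mean and SD as bars and axes from 0. Dicer1 1460571_at is lower and 1427941_at higher in every CNOT3KO mouse, and every CNOT3KO ratio lies under every WT ratio for both genes.

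Drosha and Dgcr8, the nuclear pair, did not pass the test. Drosha gave 1483, 1444 and 1216 in the CNOT3KO mice, against 1492, 1378 and 1442 in the WT mice (log2 difference -0.06, 95% interval -0.31 to 0.19), with overlap. Dgcr8 gave 550.2, 647 and 519 in the CNOT3KO mice, against 497, 483 and 505 in the WT mice. All CNOT3KO values of Dgcr8 were above all WT values, but the log2 difference of 0.20 (SE 0.12) gave a limma adjusted p of 0.235. The second tested probe set of each gene overlapped between groups, with log2 differences of 0.01 for Drosha and 0.13 for Dgcr8. The difference between Drosha and Dgcr8 itself did not pass (-0.26, adjusted p = 0.185).

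Counted by probe set, 29 of the 36 were bright enough to test and 7 passed. The share over all 22861 tested probe sets was 35.8%. The 6 lower were 1 each of Tnrc6a, Tnrc6c, Ago3 and Dicer1 and 2 of Tnrc6b, and the share lower over all probe sets was 17.2%. The 1 higher was Dicer1 1427941_at, against 18.6% higher over all probe sets. Groups did not overlap for 12 of the 29, against 49% of all tested probe sets. The 7 untested probe sets were 2 of Ago3, 2 of Dgcr8 and 1 each of Tnrc6a, Tnrc6c and Drosha, all with overlapping groups. Probe sets whose names end in _s_at or _x_at can hybridise with more than 1 transcript or gene.

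**Figure D3:**
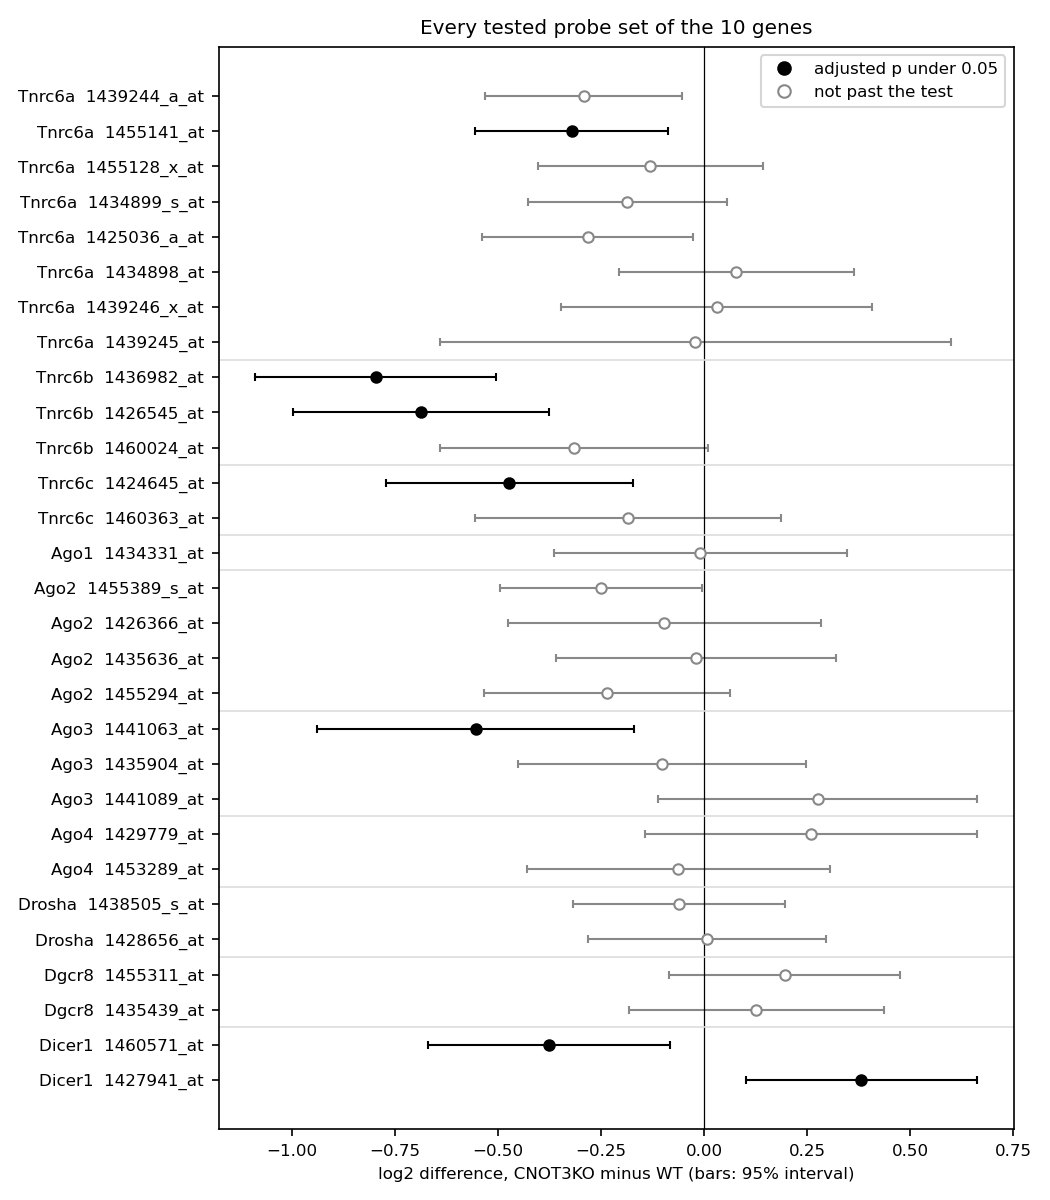
Log2 difference, CNOT3KO minus WT, with its 95% interval (horizontal axis) for each of the 29 tested probe sets, grouped by gene down the page; filled points passed at an adjusted p under 0.05. The 2 filled Tnrc6b points lie farthest to the left, and the filled Dicer1 points lie on opposite sides of 0.

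**Figure D4:**
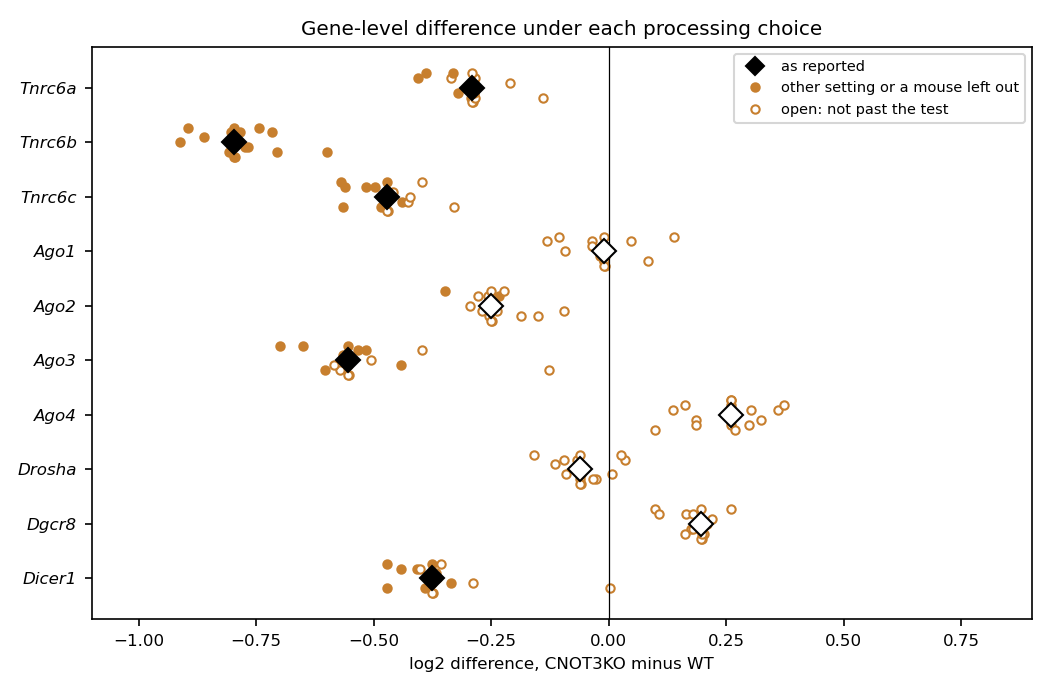
Gene-level log2 difference, CNOT3KO minus WT (horizontal axis), of each of the 10 genes as reported (diamonds) and under up to 20 other settings (circles), filled where the adjusted p passed. All Tnrc6b points are filled and lie between -0.91 and -0.60, while the other called genes have open points under some settings.

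The 46 other genes of the pathway were grouped by role, and 40 of them were measured brightly enough to test. Of these, 12 passed as higher, 4 as lower and 24 did not pass, which is 16 of 40 against the 40.1% of all tested genes. Their median log2 difference was 0.08, against 0.02 over all tested genes, and 23 of the 40 had groups that did not overlap, against 51.7% of all tested genes. No probe set with a single symbol was found for Erh, Hsp90ab1 and Ptges3, and probe sets with several symbols or none were not used. Lin28a, Lin28b and Trim71 were too dim.

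The silencing complex partners held 4 higher and 3 lower of 14 (median -0.04), against 23.2% higher and 16.9% lower over all tested genes. Fmr1, an RNA-binding protein of ribosomes and silencing complexes, gave 9828, 10066 and 10466 in the CNOT3KO mice, against 2891, 4955 and 4302 in the WT mice (log2 difference 1.35, SE 0.17, limma adjusted p = 0.000335). Fxr1, its paralog, gave 4051, 3805 and 5122 in the CNOT3KO mice, against 1555, 1675 and 1878 in the WT mice (1.33, adjusted p = 8.96e-05). Both separated the groups widely, but Fxr1 had a log2 difference of 0.27 (adjusted p = 0.135) when probe sets ending in _a_at, _s_at or _x_at were avoided. Mov10, a helicase that works with Argonaute, gave 490.4, 404 and 400.2 in the CNOT3KO mice, against 225, 216 and 227 in the WT mice (0.88, adjusted p = 0.000804). With all tested probe sets of a gene averaged, the log2 differences were 0.66 for Fmr1, 0.32 for Fxr1 and 0.41 for Mov10. Each was still past the test (adjusted p = 0.0245, 0.0262 and 0.0182). The remaining calls, named after their values were seen, were Snd1 (0.42) as higher and Ankrd52 (-0.70), Ppp6c (-0.55) and Ajuba (-0.48) as lower. In human cells, Ankrd52 and Ppp6c are subunits of the phosphatase that removes phosphates from Argonaute, and Ajuba belongs to a family of adaptors that bind Argonaute.

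Among the chaperones that load small RNA into Argonaute, 4 of 6 were higher and none lower (median 0.42), against 23.2% higher and 16.9% lower over all tested genes. Ahsa1, an activator of Hsp90, gave 3071, 2839 and 3267 in the CNOT3KO mice, against 2136, 1655 and 1539 in the WT mice (log2 difference 0.79, limma adjusted p = 0.00146). Stip1, which links Hsp70 to Hsp90, gave 961, 1027 and 1047 in the CNOT3KO mice, against 664, 650.0 and 618 in the WT mice (0.63, adjusted p = 0.00124). Every CNOT3KO value was above every WT value for both. Hspa8 was higher by 0.54 (adjusted p = 0.00643) from its brightest probe set, but -0.56 (adjusted p = 0.0953) from the one read when _a_at, _s_at and _x_at probe sets were avoided. Fkbp4, named after its values were seen, was the fourth (0.30). With all tested probe sets of a gene averaged, Ahsa1 (0.29, adjusted p = 0.0927) and Hspa8 (0.21, adjusted p = 0.207) did not pass.

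The factors that act with Drosha in the nucleus or export the hairpin had 1 higher and 1 lower of 8 (median -0.07), against the same 23.2% and 16.9%. Mettl3, the enzyme that methylates adenosine in mRNA and primary microRNA transcripts, gave 815, 741 and 722 in the CNOT3KO mice, against 477, 502 and 528 in the WT mice (log2 difference 0.57, limma adjusted p = 0.00314). Ddx5, a helicase of the Drosha complex, gave 9022, 9453 and 8656 in the CNOT3KO mice, against 10699, 13309 and 12463 in the WT mice (-0.42, adjusted p = 0.0127). Neither overlapped between groups. The Ddx5 call was lost without WT mouse 2 (-0.35, adjusted p = 0.0639), with its probe sets averaged (-0.31, adjusted p = 0.0626) and with suffixed probe sets avoided (-0.24, adjusted p = 0.443).

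Of the Dicer partners 1 of 5 was higher (median 0.21), against 23.2% of all tested genes. This was Tarbp2, the double-stranded RNA-binding partner of Dicer, with 828, 860.2 and 823 in the CNOT3KO mice, against 612, 579.5 and 408 in the WT mice (log2 difference 0.65, limma adjusted p = 0.00822). Of the tailing and turnover genes 2 of 7 were higher (median 0.12), against the same 23.2%. These were Parn, a poly(A) ribonuclease (0.37, adjusted p = 0.0337), and Tut4, which adds uridines to small RNA precursors (0.31, adjusted p = 0.0477). Both separated the groups, and both calls were lost when arrays were centred on the median of tested genes (0.28 for Parn and 0.22 for Tut4) and when probe sets were averaged (0.31 for Parn and 0.01 for Tut4). The Parn call was lost without WT mouse 1 (0.29), WT mouse 3 (0.38), CNOT3KO mouse 1 (0.34) or CNOT3KO mouse 2 (0.37). The Tut4 call was lost without WT mouse 1 (0.28), WT mouse 3 (0.28) or any CNOT3KO mouse (0.31, 0.34 and 0.28 without mice 1, 2 and 3).

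**Figure D5:**
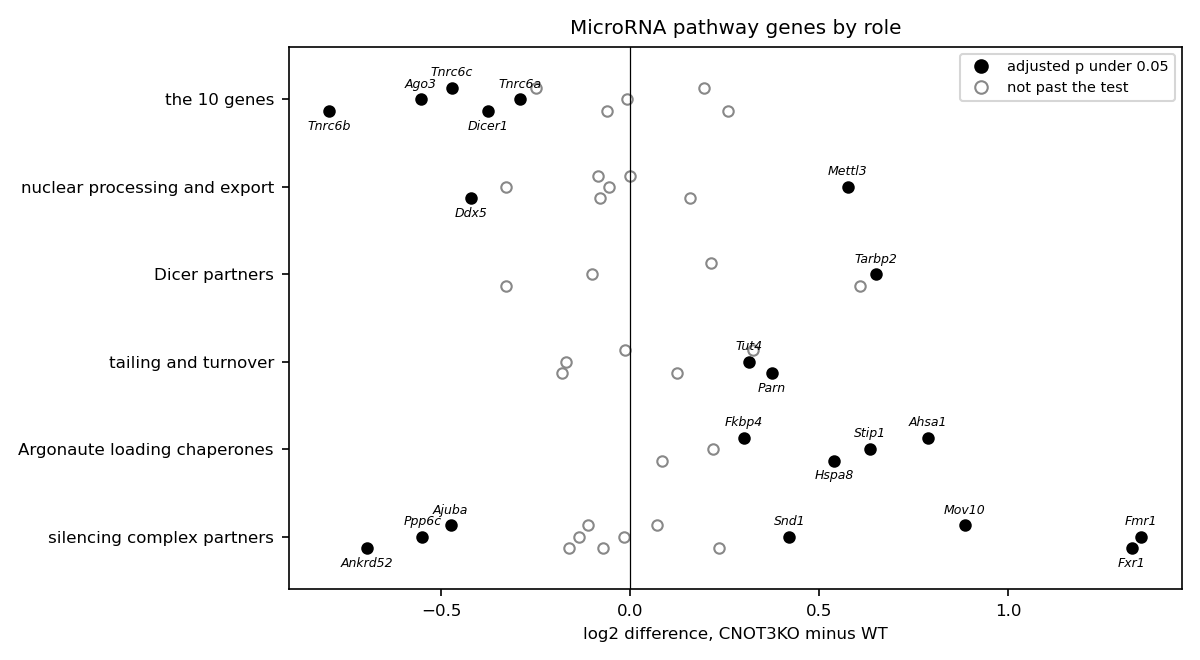
Log2 difference, CNOT3KO minus WT (horizontal axis), of each tested gene of the microRNA pathway, in a row for each role; filled points passed at an adjusted p under 0.05 and carry the gene's name. The filled points of the 10 genes all lie left of 0, those of the chaperones all lie right of 0, and Fmr1 and Fxr1 lie farthest to the right.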

How the data were processed

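Total RNA (500 ng labelled per array, per the labels' protocols) was hybridised to 6 Affymetrix arrays, 3 CNOT3KO and 3 WT. The deposited values are linear intensities, and the submitters' processing notes name MAS5 as the program the authors ran. Its version, settings and scaling target, and any genome build, were not given in the sources used. After trimming 2% at each end, array means differed by at most 0.07%, and medians ran from 82.1 to 92.9. Pearson correlations of log2 values were 0.979 to 0.988 within groups and 0.929 to 0.940 between groups.

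Of 45037 probe sets, 34945 carried 1 gene symbol in the platform annotation, 932 several and 9160 none. Of the single-gene ones 34741 matched RefSeq, with 0 symbols changed. Signals were taken as log2(signal + 22.5), where 22.5 was the 25th percentile of the deposited intensities. A gene was read from its brightest probe set by mean over the 6 arrays. Probe sets with a mean under 51.6, the 40th percentile, were not tested, which left 12769 genes of 18193. Where the probe sets of a gene were averaged, those under this filter were left out. Differences are CNOT3KO minus WT from limma 3.58.1 in R 4.3.3 (lmFit, eBayes with trend, two-sided, Benjamini-Hochberg over the whole table, adjusted p under 0.05). They are on the log2(signal + offset) scale, which understates changes of dim probe sets. The same fit was run on every probe set singly, on ratios of probe sets of a gene, and on ratios of genes to a member. The offset, filter, normalization, centring, probe set choice, prior, array weights, replicate block, threshold and each mouse were varied. The scripts were tested on simulated data, and figures were drawn with matplotlib 3.10.9.

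The number of arrays limits the precision: with 3 against 3 the median SE was 0.15 on the log2 scale. An exact permutation test of 1 value could not go below p = 0.1, so none was used. The labels list separate mice, but do not state litters or batches. The titles do not say that the numbers pair mice, so the main fit did not pair them. Deviations of same-numbered mice correlated at 0.0742, 0.109 and 0.0433, which cannot show whether they shared a litter or batch.

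The genes named by rule were all members with all their probe sets, Cnot3, from each partner list the 3 called genes with the largest difference and no overlap, and the 3 genes nearest to the most changed member. The epididymis markers Rnase10, Lcn5, Lcn8, Adam7 and Spint4 were named outside this rule, after their values were seen. So were the partner genes marked that way above. The members and lists were chosen with earlier results of these data known.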

Additional observations from a re-analysis of the deposited data

How the results depend on the processing

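The count of called members was 5. It was 2 with no filter on dim genes, 3 with arrays centred on ribosomal protein genes, 1 with probe sets averaged, 3 without the trend, 1 at an adjusted p under 0.01, and 1 to 3 with a mouse left out. The count of called member probe sets was 7, with 4 under no filter, 4 under ribosomal centring and 2 to 4 with a mouse left out. At the stricter threshold 3144 genes were called, against 5115, and 9 pathway partners, against 16. With a mouse left out these counts were 3820 to 4636 and 11 to 15, the probe set differences 0 to 2 and the paralog differences 0 to 4. The highest counts over the settings run were 6 members, 10 member probe sets, 20 pathway partners and 6615 genes. The prior from unrelated gene pairs, added after seeing the data, left 1 paralog difference of 2. Ago2 passed with arrays centred on the median of tested genes (-0.35) and with array weights (-0.23). Leaving out a mouse also leaves fewer samples.

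Of 1169 single values under other settings, 1044 stayed on the same side of the threshold, 109 lost the call with the same sign and 14 gained it. A sign change was seen in 40, of which 38 were values past the test in neither fit, and these were at most 0.15 in size as reported. The other 2 were called as reported: Dicer1 with probe sets averaged (0.0029, against -0.38) and Hspa8 with suffixed probe sets avoided (-0.56, against 0.54). The cause was not tested.

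With the mouse number as a replicate block, 4 members, 6 member probe sets, 5092 genes, 14 partners, 2 probe set differences and 3 paralog differences were called. The block ended the calls of Tnrc6a (adjusted p = 0.0558), Dicer1 1460571_at tested singly (0.0517), Parn (0.0512) and Tut4 (0.0741), and Ago1 over Ago3 passed (0.0171). That ratio was not refitted beside unrelated gene pairs with the block. The mice share only a number.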
